A study of Marchantia polymorpha with 6 samples.

Results

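Gene models of the liverwort Marchantia polymorpha whose exons overlap on opposite strands were followed in thalli of Mpbes1, whose gene for the transcription factor BES1 was mutated by CRISPR/Cas9, and of the wild-type accession Tak-1. Members were chosen by position alone: every pair of models on the same sequence, on opposite strands, with at least 1 shared exon base. The rule gave 511 pairs, which held 1002 of the 19287 gene models of the deposited table. Of these models, 982 belonged to 1 pair and 20 to 2 pairs. Poly(A) RNA of 6 libraries was compared, 3 from Mpbes1 and 3 from Tak-1, each from a different plant. Both genotypes were sampled as thalli with apical notches after 30 days on half-strength Gamborg B5 medium without further treatment, under 50 µmol/m2/s of light for 16 h at 22 °C and darkness for 8 h at 20 °C. The number of independent mutant lines is not given in the sources used here.

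Transcripts read from opposite strands of the same stretch of DNA are called cis natural antisense transcripts, and their overlapping ends are complementary in sequence. Where genes face each other tail to tail, transcription converges and the 3′ ends overlap. Where they stand head to head, transcription diverges and the 5′ ends overlap, so that both starts lie in the same short region. In plants, such pairs are known from cases in which one transcript affects the other, through collision of polymerases, chromatin changes or small RNAs made from the double strand, and also from many pairs with no known effect. BES1 belongs to the BES1/BZR1 family, known in flowering plants for carrying brassinosteroid signals to target promoters. The thallus is the haploid main body of the liverwort.

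The libraries were made with a kit that keeps the strand of the RNA, and they held 11597664 to 17741253 counts each. A model without a read in a library could have been present at 0.166 to 0.266 CPM at most (CPM, counts relative to a library size that TMM had adjusted), depending on the depth. None of the deposited identifiers could be paired with a gene name, so models are given by sequence and coordinates as in the deposited table. For lack of names, the targeted gene and markers of the tissue were not analysed here.

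The 511 pairs were spread over 154 of the 763 sequences that carry gene models. Tail-to-tail pairs were the most frequent with 258, followed by 231 head-to-head pairs and 22 pairs in which the span of one model lay within that of the other. The shared exon length had a median of 395 bases, with quartiles of 160.5 and 724.5 bases and a range of 1 to 2814 bases. In 82 pairs it was 1 to 99 bases, in 124 pairs at least 100 and under 300, in 234 pairs at least 300 and under 1000, and in 71 pairs 1000 or more. Seen from a single model, a median of 19.8% of the exon bases lay opposite an exon of a partner, with quartiles of 8.59% and 34.8%. A further 88 pairs had overlapping spans without a shared exon base, as when a model lies in an intron of another, and do not count as members.

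The first question is whether the counts can tell the partners apart, since the strand setting of the authors' counting is not given in the sources used here. Models with every exon base covered by a partner bear on this directly. There were 3 such models, each a single exon block inside a longer model on the opposite strand, and all 3 had at least 10 counts over the 6 libraries. The clearest was the minus-strand model at bases 293032 to 293592 of scaffold_151, a block of 561 bases. It had 95, 71 and 136 counts in Mpbes1 plants, against 102, 122 and 88 counts in Tak-1 plants, 614 in all. The plus-strand model around it, bases 292088 to 294596 and 2509 bases long, had 5, 4 and 5 counts in Mpbes1 against 4, 3 and 7 in Tak-1, 28 in all. At this place, reads on the shared bases had thus neither been given to both models nor discarded. The level of the covered model overlapped between the genotypes (log2 fold change of Mpbes1 over Tak-1 -0.23 ± 0.18, SE; adjusted p = 0.32 in edgeR's quasi-likelihood test, adjusted by Benjamini-Hochberg).

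The other fully covered models were the weaker member of their pair. On scaffold_52, the 531 bases of the minus-strand model at 505235 to 505765 held 37 counts, while the plus-strand model at 503988 to 510868 held 874. On scaffold_2, the 510 bases of the minus-strand model at 1565439 to 1565948 held 34 counts, while the plus-strand model at 1565225 to 1567850 held 6093. That stronger scaffold_2 model had 91.7, 85.3 and 88.0 CPM in Mpbes1, against 57.4, 66.1 and 63.3 CPM in Tak-1, with no overlap between the genotypes. It rose by a log2 fold change of 0.50 ± 0.07 (SE; adjusted p = 0.00026, edgeR). Its covered partner stayed below the count needed for a test, with 7, 7 and 8 counts in Mpbes1 against 7, 4 and 1 in Tak-1.

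A wider view came from strong partners. If reads lay evenly along a model, the stronger partner of 112 pairs would have at least 1000 counts on the shared bases alone. The weaker partner's whole count was a median of 1.09% of that number, with quartiles of 0.0835% and 34.3%. It was under 1% in 54 of the 112 pairs, and 16 weaker partners had 0 counts. On scaffold_55, for example, a model with 17280 counts shared 1183 exon bases with a model that had 0. On scaffold_2, a model with 54619 counts shared 913 exon bases, between positions 1920347 and 1921530, with a model that had 1. At the other end, 18 weaker partners had counts at least as high as those of the stronger partner on the shared bases. Reads may be uneven along a model, so these shares are descriptions and no measure of error in strand assignment. A weaker partner would also have few counts if reads on shared bases had been discarded, which these shares cannot tell.

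**Figure D1:**
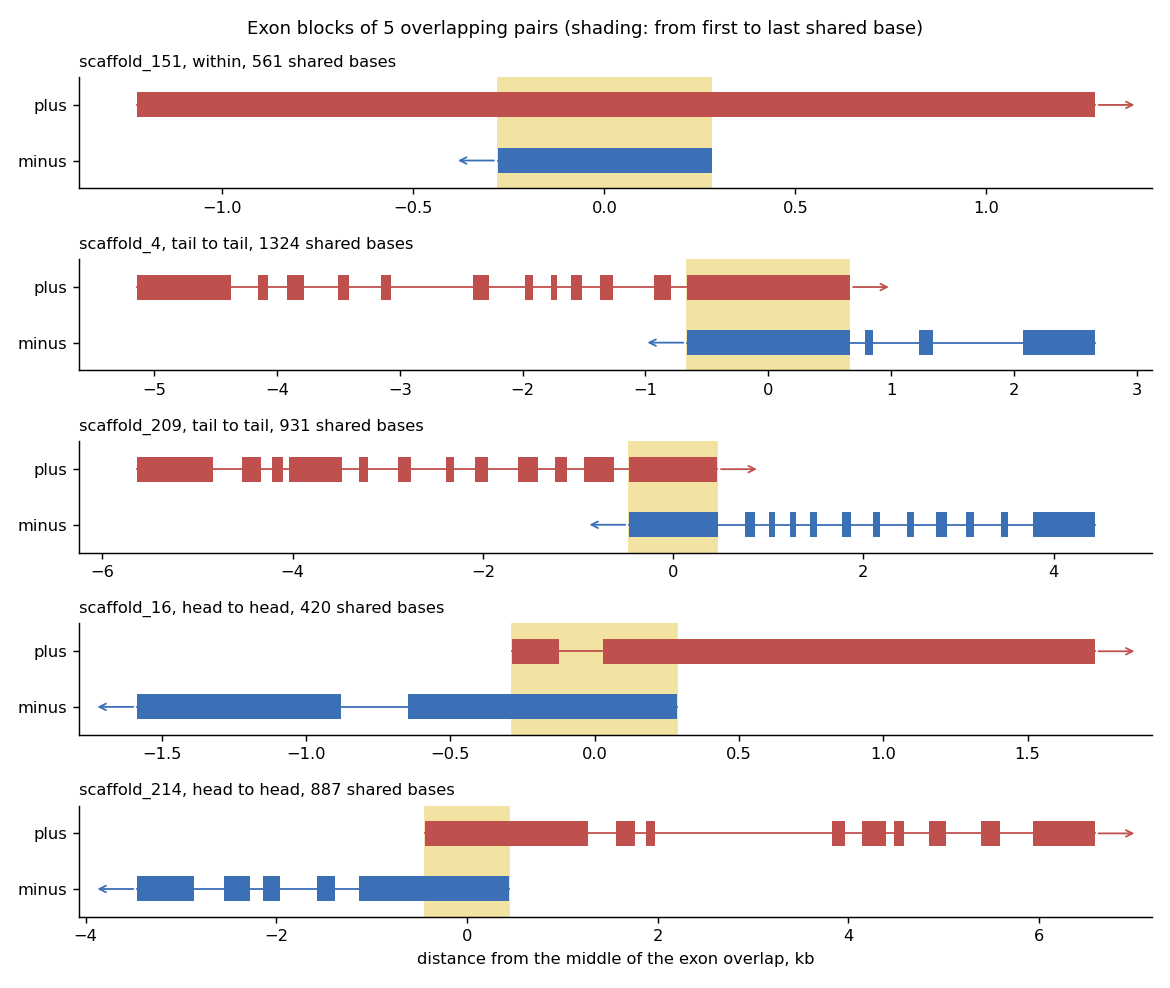
Exon blocks of 5 overlapping pairs, drawn to scale as the distance from the middle of the exon overlap in kb, with the plus-strand model in red, the minus-strand model in blue, arrows in the direction of transcription and shading from the first to the last shared base. The minus-strand model of scaffold_151 lies wholly within an exon of its partner, and the scaffold_4 and scaffold_209 pairs share their last blocks. The scaffold_214 pair shares its first blocks, while on scaffold_16 the first minus-strand block overlaps both blocks of the plus-strand model.

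Levels of the partners were then compared per exon length, as CPM per kb, since models differ in length. The members were expressed at a median of 2.57 CPM per kb (mean of the 6 libraries for each model), against 4.53 CPM per kb for all 19287 models. No read was seen for 132 members, 13.2%, against 15.7% of all models. A total of 611 members, 61.0%, passed the filter on low counts and were tested, against 63.8% of all models. In bulk thallus tissue, a lower count from fewer cells that express a gene and from less RNA per cell cannot be told apart.

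Most overlapping pairs held a strong and a weak partner. The stronger partner had a median of 11.3 CPM per kb and the weaker partner 0.056. In 281 of the 511 pairs, 55.0%, the weaker partner was below 0.1 CPM per kb. The median absolute log2 ratio of the partners' levels, with 0.1 added to each, was 4.20 ± 0.04 in Mpbes1 and 4.10 ± 0.09 in Tak-1 (SD, n = 3 each), so the separation was of similar size in both genotypes. It depends on the value added, as most weaker partners lie below 0.1: with 1 CPM per kb added, it was 2.58 ± 0.03 in Mpbes1 and 2.53 ± 0.04 in Tak-1 (SD, n = 3 each). Partners were at least 10-fold apart in 282 pairs and within 2-fold of each other in 119 pairs. Stronger partners lay on the plus strand in 265 pairs and on the minus strand in the others.

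As a comparison, 8460 pairs of opposite-strand models that are direct neighbours without overlapping spans had a median absolute log2 ratio of 2.98 ± 0.004 in Mpbes1 and 3.0 ± 0.03 in Tak-1 (SD, n = 3 each). With 1 CPM per kb added, these were 2.04 ± 0.01 in Mpbes1 and 2.05 ± 0.01 in Tak-1. Among these neighbours, 45.6% had a weaker partner below 0.1 CPM per kb, and 47.1% were at least 10-fold apart. The 88 pairs with overlapping spans but no shared exon base stood further apart than the 511 pairs. With 0.1 added, their median was 6.43 ± 0.16 in Mpbes1 and 6.18 ± 0.13 in Tak-1 (SD, n = 3 each). Of these 88 pairs, 84.1% had a weaker partner below 0.1 CPM per kb, and 71.6% were at least 10-fold apart. A wide separation was thus also seen without a shared exon base. Across the 511 overlapping pairs, the levels of plus and minus partner had a Spearman correlation of -0.24. Across the neighbours, the levels of left and right model had one of 0.13, and across the 88 pairs without a shared exon base one of -0.32. In pairs with both partners tested, the correlations were -0.04 for overlapping pairs and 0.05 for neighbours. The filter on low counts selects on these levels and narrows their range, so these values cannot show where the contrast lay. These correlations run across pairs from the same 6 libraries, and no test was made of them or of any difference between these sets of pairs.

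The separation was not monotonic in the length of the overlap. The median absolute log2 ratio was 4.01 ± 0.25 in Mpbes1 and 4.12 ± 0.31 in Tak-1 for 1 to 99 shared bases (SD, n = 3 each). It was highest in the class from 100 bases, with 5.53 ± 0.13 in Mpbes1 and 5.55 ± 0.08 in Tak-1. It was 4.18 ± 0.14 in Mpbes1 and 4.07 ± 0.11 in Tak-1 in the class from 300 bases, and 3.59 ± 0.08 in Mpbes1 and 3.42 ± 0.13 in Tak-1 for 1000 bases or more. The peak in the class from 100 bases came from head-to-head pairs, with 5.82 ± 0.19 in Mpbes1 and 5.98 ± 0.05 in Tak-1 (SD, n = 3 each; 76 pairs). The tail-to-tail pairs of that class had the lowest value of their layout, with 2.71 ± 0.09 in Mpbes1 and 3.21 ± 0.08 in Tak-1 (42 pairs). For 1000 bases or more the layouts also stood apart. Tail-to-tail pairs had 4.62 ± 0.14 in Mpbes1 and 3.87 ± 0.12 in Tak-1 (51 pairs). Head-to-head pairs had 2.47 ± 0.12 in Mpbes1 and 2.35 ± 0.26 in Tak-1 (19 pairs). With 1 CPM per kb added, the tail-to-tail values were 2.89 in Mpbes1 and 2.74 in Tak-1, and the head-to-head values 1.53 and 1.61. Over all layouts, the 4 classes from short to long then had 2.52, 2.80, 2.54 and 2.42 in Mpbes1. In Tak-1 they had 2.57, 2.91, 2.48 and 2.19. The class from 100 bases stayed the highest, but by less. In pairs with both partners tested and 0.1 added, it was not the highest, with 1.75 in Mpbes1 and 1.88 in Tak-1. There, the highest class was 1 to 99 bases in Mpbes1 (1.92) and 1000 or more in Tak-1 (2.07). The size of the peak thus depended on the value added. Each SD is the spread between libraries over the same pairs, and not the spread between pairs. Differences between classes and between layouts were not tested. The median level of the weaker partner was 0.039, 0.017, 0.096 and 0.344 CPM per kb in the 4 classes from short to long, while that of the stronger partner stayed between 9.93 and 12.3. Within the longest class the partners' levels had a Spearman correlation of -0.48 (71 pairs), and of -0.31 in its 40 pairs with both tested.

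**Figure D2:**
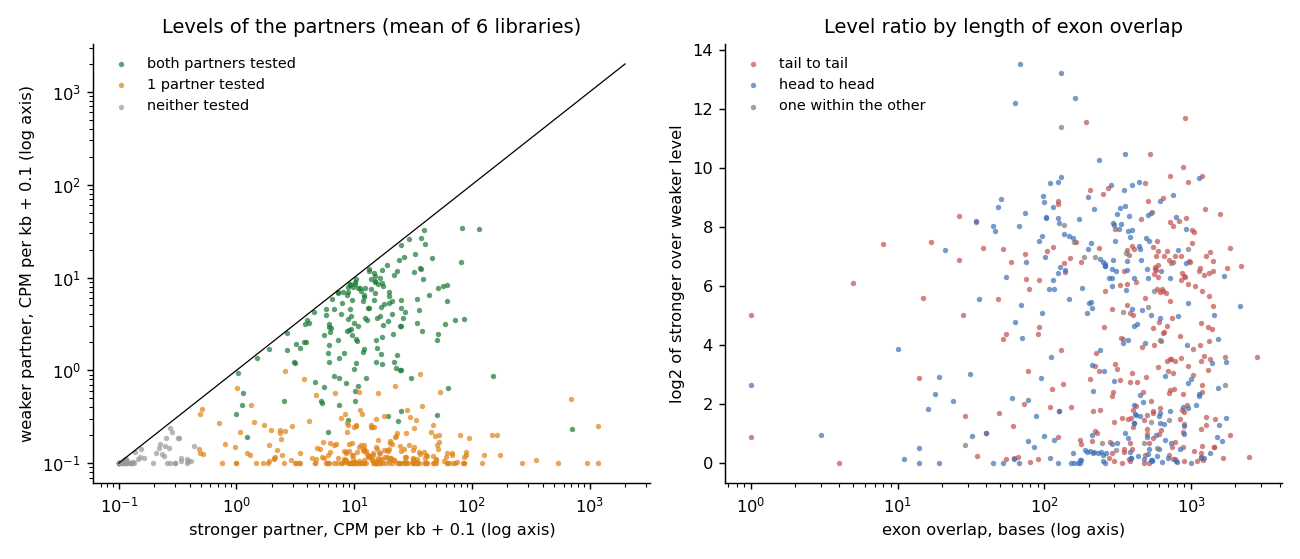
Left, the level of the stronger partner (horizontal) against the weaker partner (vertical) of each of the 511 pairs, in CPM per kb plus 0.1 on log axes, colored by how many partners were tested, with a line of equal levels. Right, the log2 of stronger over weaker level against the exon overlap in bases on a log axis, colored by layout; pairs with 1 tested partner lie far below the line on the left, and wide ratios occur at every overlap length on the right.

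Both partners were tested in 175 pairs, 34.2% (exact 95% binomial interval 30.1 to 38.5%), 1 partner in 270 pairs, 52.8% (48.4 to 57.2%), and neither in 66. Of the neighbours without overlap, 44.8% had both partners tested and 40.5% had 1. The shares differed by layout: both partners were tested in 116 of 258 tail-to-tail pairs, 45% (38.8 to 51.3%), but in 58 of 231 head-to-head pairs, 25.1% (19.7 to 31.2%). Among head-to-head pairs in the class from 100 bases, 7 of 76 had both partners tested. By length of the overlap, the share was 32.9% for 1 to 99 bases, 20.2% in the class from 100, 35.5% in that from 300 and 56.3% for 1000 or more. Pairs with one model inside the other had both tested once in 22.

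In the 270 pairs with 1 tested partner, the tested one was the stronger in 269. Its level had a median of 14.5 CPM per kb, with a range of 0.203 to 1178, while the untested partner had a median of 0.0178 and a highest value of 0.888. The stronger partner was also the longer in 197 of these pairs, with a median exon length of 2877 bases against 1575.5 for the weaker. It had a median of 6 exon blocks against 3, and 58 weaker partners were a single block against 15 stronger ones. No read was seen for 84 of the 270 weaker partners. The filter on low counts acts on counts, which depend on level and exon length, so it favours the stronger and longer partner beforehand. These differences in level, length and blocks are therefore descriptions. In Mpbes1, the tested stronger partner rose in 43 of the 270 pairs, 15.9%, and fell in 65, 24.1%, against 19.3% risen and 21.1% fallen of all models tested.

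The 175 pairs with both partners tested were of another kind. Their stronger partners had a median of 12.6 CPM per kb and their weaker partners 3.46, and the stronger was the longer in 72 of them. Their median absolute log2 ratio was 1.61 ± 0.04 in Mpbes1 and 1.64 ± 0.02 in Tak-1 (SD, n = 3 each), against 1.77 ± 0.005 in Mpbes1 and 1.76 ± 0.04 in Tak-1 for neighbours with both tested. Passing the filter requires counts in both partners, so pairs with a nearly silent partner are left out of these ratios.

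Among pairs with both partners tested, the widest ratio was on scaffold_37, where the tails shared 193 bases. The plus-strand model at 379421 to 381171 had 764 CPM per kb in Mpbes1 and 667 in Tak-1. The minus-strand model at 380979 to 399667 had 0.139 CPM per kb in Mpbes1 and 0.131 in Tak-1, a log2 ratio of 11.57 over the 6 libraries. Neither was called different between the genotypes, except that the plus-strand model rose with DESeq2 (adjusted p = 0.047) and with library sizes alone (adjusted p = 0.031, edgeR). On scaffold_2, the plus-strand model at 2249726 to 2252439 stood above its tail-to-tail partner at 2251429 to 2255962 by a log2 ratio of 7.45, with 1011 shared bases. Its CPM was 298, 302 and 304 in Mpbes1 against 365, 371 and 394 in Tak-1, and it fell by 0.32 ± 0.07 on the log2 scale (SE; adjusted p = 0.0031, edgeR). The partner had 1.44, 1.41 and 1.27 CPM in Mpbes1 against 1.78, 2.42 and 2.31 in Tak-1, which was lower in every Mpbes1 library but missed the threshold (-0.66 ± 0.26, SE; adjusted p = 0.066, edgeR). The last blocks of this scaffold_2 pair nearly coincided, at 2251428 to 2252439 on the plus and 2251429 to 2252440 on the minus strand. The next pair, on scaffold_51, had a log2 ratio of 7.28, shared 38 bases and held no call.

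Setting Mpbes1 against Tak-1 asks which members differ between mutant and wild type, and whether partners move together. Of the 611 members tested, 111 rose and 111 fell in Mpbes1 at a Benjamini-Hochberg adjusted p under 0.05 in edgeR's quasi-likelihood test, 36.3% together. Over all 12313 models tested, 40.4% were called, 19.3% as risen and 21.1% as fallen. The members' share was thus near the background and somewhat below it. At least 2-fold changes were called for 49 members, 20 that rose and 29 that fell, or 8.02% of those tested against 11.7% of all models. The median log2 fold change was 0.02 over the members and 0.01 over all models, and the median absolute value 0.22 against 0.23. With library sizes alone as scaling, 138 members rose and 95 fell.

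Members differed by how much of their exons was shared. Models with up to 10% of their exon bases covered had a median level of 6.42 CPM per kb, and 204 of 283 were tested. In this class 34 rose and 59 fell, 16.7% and 28.9% of those tested, against 19.3% and 21.1% of all models tested. From 10 to 25% covered, the median was 2.30 CPM per kb, 190 of 315 models were tested, 37 rose (19.5%) and 28 fell (14.7%). From 25 to 50% it was 0.575 CPM per kb, with 164 of 317 tested, 29 risen (17.7%) and 18 fallen (11.0%). From 50 to 80% the median was 4.14 CPM per kb, with 50 of 77 tested, 10 risen and 6 fallen (12%). Falls were thus more frequent than over all models in the first class and less frequent in the next 3, differences that were not tested. Exon length also differed between the classes, with a median of 3059 bases in the first of them and 1763 in the last. The part of length and level in the split of rises and falls was not tested.

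Of the 10 models with over 80% of their exon bases covered, 3 were tested. One was the fully covered scaffold_151 model above. Another minus-strand model of scaffold_151, at 36 to 5521 with 2629 exon bases, had 270, 286 and 427 counts in Mpbes1 against 302, 284 and 247 in Tak-1. The plus-strand partner with which it shared 2149 bases, at 2663 to 8296, had 5, 6 and 5 counts in Mpbes1 against 9, 12 and 7 in Tak-1. The third lay on the plus strand of scaffold_1 at 3205601 to 3207898, with tails shared on the right and its start on the left, so that 63 of its 1488 exon bases were its own. It had 172, 192 and 264 counts in Mpbes1 against 156, 140 and 136 in Tak-1, and rose by 0.36 ± 0.11 on the log2 scale (SE; adjusted p = 0.021, edgeR). Its right partner at 3206310 to 3211662, with 1164 shared bases, rose by 0.23 ± 0.08 (SE; adjusted p = 0.036, edgeR). The left partner at 3201253 to 3206014, with 261 shared bases, was not called (-0.12 ± 0.09, SE; adjusted p = 0.33, edgeR).

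Partners' log2 fold changes had the same sign in 94 of the 175 pairs with both tested, 53.7% (exact 95% binomial interval 46.0 to 61.3%), and opposite signs in 81. Among the 3792 neighbours on opposite strands with both tested, 53.8% had the same sign. By length of the overlap, the observed shares were similar but had wide intervals. The share was 51.9% of 27 pairs with 1 to 99 shared bases (31.9 to 71.3%) and 52.0% of 25 in the class from 100 (31.3 to 72.2%). It was 55.4% of 83 in that from 300 (44.1 to 66.3%) and 52.5% of 40 with 1000 or more (36.1 to 68.5%). With so few pairs per class, a dependence on length could be missed. Across the 175 pairs the Spearman correlation of the partners' log2 fold changes was -0.01. Pearson's correlation was 0.38 over all of them and 0.08 without the 2 pairs with the largest changes.

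The share differed more between layouts than between lengths. Tail-to-tail pairs had the same sign in 54 of 116, 46.6% (37.2 to 56.0%), and head-to-head pairs in 40 of 58, 69.0% (55.5 to 80.5%). Without a filter on low counts the shares were closer, 49.1% tail to tail and 56.9% head to head. The same order was seen without overlap: neighbours up to 1000 bases apart had the same sign in 47.3% of 514 tail-to-tail pairs and in 67.2% of 308 head-to-head pairs. For neighbours at any distance it was 49.4% of 1864 and 58.0% of 1928. The Spearman correlation of log2 fold changes was -0.14 across the tail-to-tail and 0.30 across the head-to-head overlapping pairs. Median absolute differences between the partners' log2 fold changes were 0.33 in tail-to-tail pairs and 0.18 in head-to-head pairs. Within the layouts, the length classes showed no steady trend: 42.9%, 38.9%, 50.0% and 46.4% of tail-to-tail pairs had the same sign from the shortest to the longest overlap, and 61.5%, 85.7%, 66.7% and 72.7% of head-to-head pairs. The second of the head-to-head values rests on 7 pairs.

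At the edge of the rule, 8 pairs shared 1 to 10 bases, of which 4 had both partners tested and 0 had the same sign. Just outside it, 128 opposite-strand neighbours had gaps of 0 to 10 bases, of which 41 had both tested and 26 had the same sign.

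**Figure D3:**
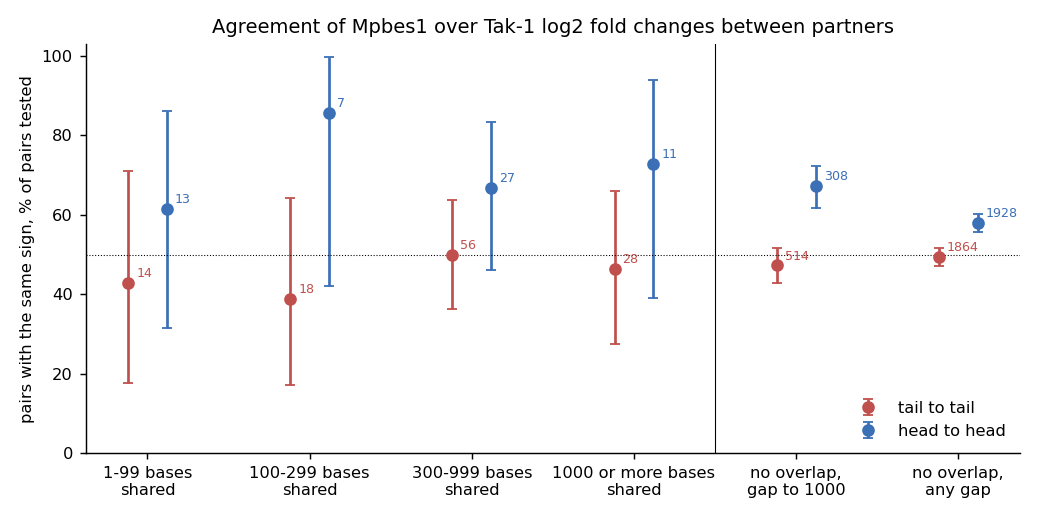
Share of pairs with both partners tested whose Mpbes1 over Tak-1 log2 fold changes have the same sign, in percent, by exon overlap for tail-to-tail pairs (red) and head-to-head pairs (blue), with neighbours without overlap right of the vertical line. Bars are exact 95% binomial intervals, small numbers are pairs tested and the dotted line marks 50%; head-to-head points lie above tail-to-tail points in each class, with intervals that overlap in each class of overlapping pairs.

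**Figure D4:**
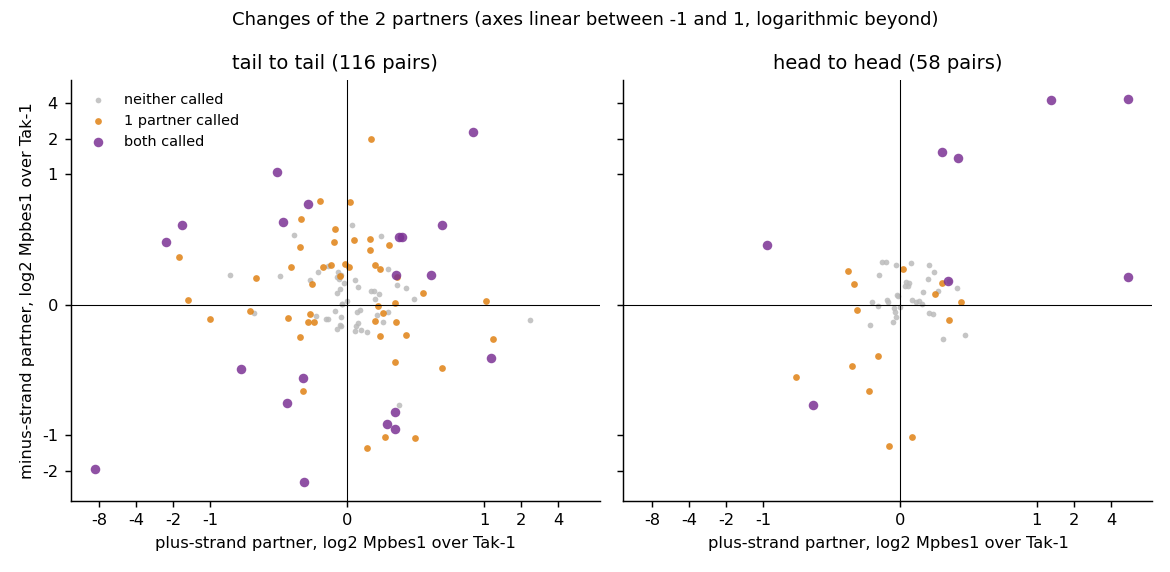
Log2 fold change of Mpbes1 over Tak-1 for the plus-strand partner (horizontal) and the minus-strand partner (vertical) of pairs with both tested, tail to tail on the left (116 pairs) and head to head on the right (58 pairs), with axes linear between -1 and 1 and logarithmic beyond. Purple points are pairs with both partners called; 9 of 20 on the left and 1 of 8 on the right lie in the quadrants of opposite signs.

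Both partners were called in 28 pairs, 16.0% of the 175, 1 partner in 61 and neither in 86. The calls had the same direction in 18 pairs, with 12 in which both rose and 6 in which both fell, and opposite directions in 10. With DESeq2 the same-direction pairs numbered 11, without Mpbes1 replicate 1 they numbered 10, and without Mpbes1 replicate 2 there were 11 same and 5 opposite pairs. Among neighbours on opposite strands, 9.68% had both partners called in the same direction and 6.14% in opposite directions. Of the 10 opposite pairs, 9 were tail to tail, with 11 tail-to-tail pairs in the same direction, among 116 with both tested. Tail-to-tail neighbours without overlap had 8.15% opposite and 8.32% same calls. Those up to 1000 bases apart had 34 opposite and 35 same among 514. Head-to-head pairs had 7 same and 1 opposite among 58 with both tested, and their neighbours without overlap 11.0% same and 4.2% opposite. Those up to 1000 bases apart had 33 same and 5 opposite among 308. Shared lengths spanned similar ranges, with a median of 718 bases (24 to 1445) for opposite and 607 bases (40 to 1304) for same calls. With a requirement of at least 2-fold in both partners, 3 of the 175 pairs in the same direction and 0 in opposite directions remained. Among the 3792 opposite-strand neighbours with both tested, 65 same and 19 opposite pairs met it. Opposite pairs at that threshold were thus rare without overlap too.

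In each of the 10 opposite pairs, a partner that rose faced one that fell, and in 4 of them one of the changes was at least 2-fold. The weaker partner had the larger absolute change in 7 of the 10. A call at lower counts generally needs a larger change, so choosing pairs by their calls favours this. The count is therefore a description. The pair with the largest difference lay on scaffold_4 and shared its last blocks over 1324 bases. In this pair the last blocks were nearly the same interval, 3020678 to 3022001 on the plus and 3020677 to 3022002 on the minus strand. Its weak plus-strand model Mapoly0004s0295.v3.1, at 3016197 to 3022001 with 12 exon blocks, had 0.338, 0.314 and 0.332 CPM in Mpbes1 against 1.48, 2.11 and 1.33 CPM in Tak-1. It fell by 2.29 ± 0.37 on the log2 scale (SE; adjusted p = 0.00061, edgeR), at a level in Mpbes1 near what a count of 0 allows in a library. Its minus-strand partner Mapoly0004s0296.v3.1, at 3020677 to 3024001 with 4 blocks, had 19.0, 17.2 and 17.5 CPM in Mpbes1 against 12.1, 13.5 and 13.0 CPM in Tak-1. It rose by 0.48 ± 0.10 (SE; adjusted p = 0.0039, edgeR). The genotypes did not overlap for either partner, and the log2 ratio of plus over minus level was -5.38 ± 0.06 in Mpbes1 and -3.31 ± 0.25 in Tak-1 (SD, n = 3 each). As the pair was chosen by these calls, the ratio is a description.

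On scaffold_209 the tails shared 931 bases, and here both partners were well above the detection limit. The last blocks again nearly coincided, at 93994 to 94925 on the plus and 93995 to 94926 on the minus strand. Mapoly0209s0006.v3.1, on the plus strand at 88823 to 94925, had 4.74, 4.0 and 3.38 CPM in Mpbes1 against 9.50, 15.7 and 13.8 CPM in Tak-1. It fell by 1.70 ± 0.21 on the log2 scale (SE; adjusted p = 0.0001, edgeR). Its minus-strand partner Mapoly0209s0007.v3.1, at 93995 to 98894, had 28.3, 26.3 and 27.9 CPM in Mpbes1 against 17.8, 18.5 and 17.8 CPM in Tak-1, and rose by 0.61 ± 0.09 (SE; adjusted p = 0.00022, edgeR). Neither partner's values overlapped between the genotypes. The log2 ratio of plus over minus level was -3.28 ± 0.22 in Mpbes1 and -1.09 ± 0.34 in Tak-1 (SD, n = 3 each). The partners thus stood further apart in the mutant, a description again, as opposite calls imply a shift of the ratio.

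The other opposite pairs of the naming rule lay on scaffold_108, scaffold_117 and scaffold_57. The last blocks on scaffold_108 also nearly coincided, at 505022 to 505888 on the plus and 505022 to 505887 on the minus strand. On scaffold_108, with 866 shared bases, the minus-strand model at 505022 to 506648 had 31.6, 28.3 and 27.8 CPM in Mpbes1 against 13.5, 13.9 and 15.3 CPM in Tak-1, and rose by 1.04 ± 0.10 (SE; adjusted p = 1.1e-05, edgeR). The plus-strand partner at 503636 to 505888 had 6.26, 6.28 and 5.71 CPM in Mpbes1 against 9.94, 7.41 and 8.62 CPM in Tak-1 (-0.51 ± 0.16, SE; adjusted p = 0.027, edgeR). That second call was lost without any 1 of the Mpbes1 libraries and without Tak-1 replicate 1 or 3 (adjusted p = 0.057 to 0.094, edgeR), and with DESeq2 (adjusted p = 0.054).

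On scaffold_117 the shared stretch was short, 125 bases of models with exon lengths of 6906 and 4838 bases. The plus-strand model at 124869 to 142156 had 25, 25.7 and 25.5 CPM in Mpbes1 against 11.4, 11.2 and 12.2 CPM in Tak-1, and rose by 1.13 ± 0.09 (SE; adjusted p = 4e-06, edgeR). Its minus-strand partner at 139726 to 150145 had 39.2, 38.3 and 38.6 CPM in Mpbes1 against 51.4, 58.7 and 43.9 CPM in Tak-1, and fell by 0.41 ± 0.10 (SE; adjusted p = 0.0075, edgeR). Here the partners stood closer together in the mutant. The log2 ratio of plus over minus level was -1.10 ± 0.04 in Mpbes1 and -2.58 ± 0.27 in Tak-1 (SD, n = 3 each). This pair too was chosen by its opposite calls, so its ratio is a description.

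The scaffold_57 pair was the single head-to-head case, with 24 shared bases at the starts. Its minus-strand model at 465836 to 474151 had 77.3, 72.0 and 74.6 CPM in Mpbes1 against 56.0, 51.9 and 54.9 CPM in Tak-1, and rose by 0.46 ± 0.07 (SE; adjusted p = 0.00029, edgeR). The plus-strand model at 474128 to 475351 had 1.95, 1.88 and 1.22 CPM in Mpbes1 against 3.86, 2.18 and 3.73 CPM in Tak-1 (-0.98 ± 0.30, SE; adjusted p = 0.024, edgeR). This weaker call was lost without Mpbes1 replicate 3, Tak-1 replicate 1 or Tak-1 replicate 3 (adjusted p = 0.082 to 0.092, edgeR).

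The remaining 5 opposite pairs, described here outside the naming rule, were all tail to tail, on scaffold_9, scaffold_93, scaffold_29, scaffold_46 and scaffold_14. On scaffold_9, both partners were abundant: the minus-strand model at 1635331 to 1638026 had 142, 129 and 118 CPM in Mpbes1 against 236, 262 and 231 CPM in Tak-1. Its plus-strand partner at 1629400 to 1635831 had 110, 114 and 105 CPM in Mpbes1 against 105, 77.8 and 85.4 CPM in Tak-1. The scaffold_14 pair had the longest overlap among them, 1445 bases. Its minus-strand model at 329580 to 333610 had 23.9, 21.2 and 19.6 CPM in Mpbes1 against 14.5, 11.9 and 11.5 CPM in Tak-1. Its plus-strand model at 324509 to 331024 had 73.6, 67.5 and 63.4 CPM in Mpbes1 against 73.5, 93.2 and 82.2 CPM in Tak-1, groups that overlapped slightly.

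**Figure D5:**
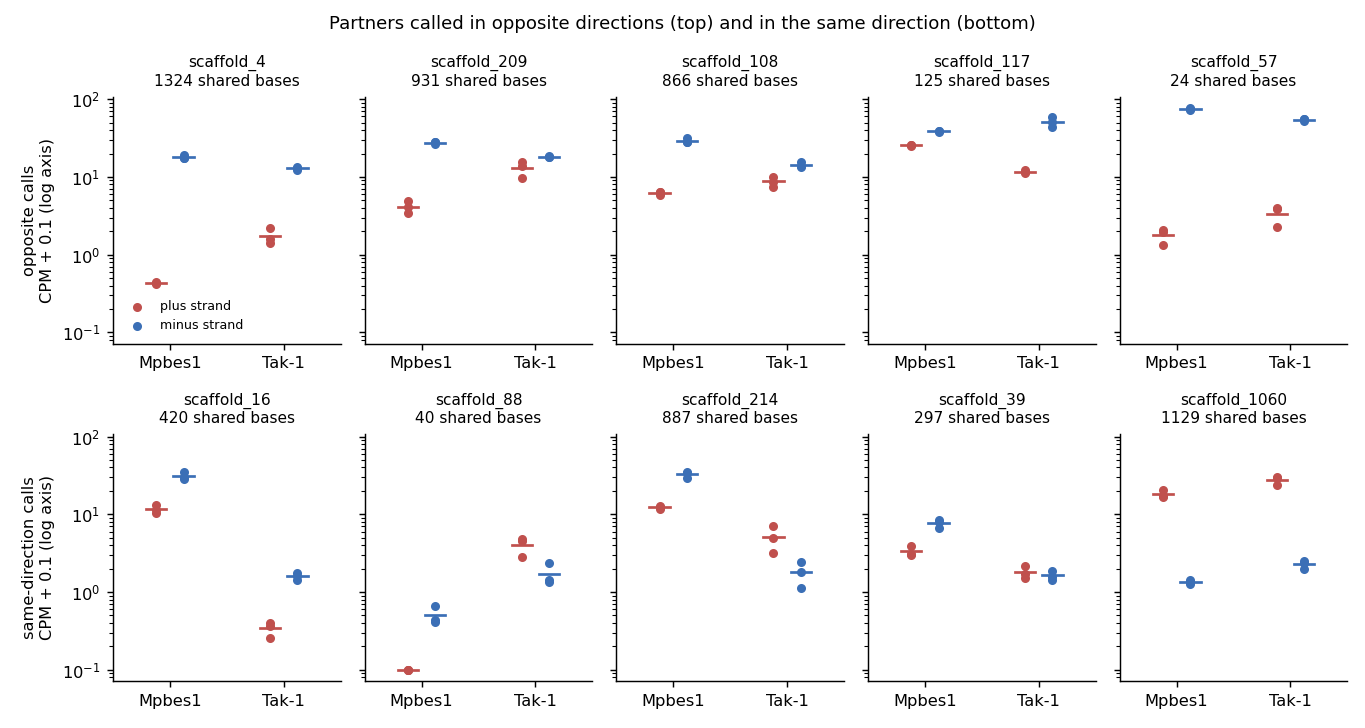
CPM plus 0.1 on a log axis for each library (points) with the mean of 3 libraries (lines), for Mpbes1 on the left and Tak-1 on the right of each panel, plus-strand models in red and minus-strand models in blue. Partners move apart or together in the opposite pairs of the top panels, as on scaffold_4 and scaffold_117. They shift the same way in the bottom panels, as on scaffold_16 where both sit far higher in Mpbes1. The pairs were chosen by these calls.

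Of the 18 pairs called in the same direction, the largest joint rise was head to head on scaffold_16, with 420 shared bases at the starts. Its plus-strand model at 751589 to 753608 had 10.4, 11.3 and 13.0 CPM in Mpbes1 against 0.297, 0.156 and 0.266 CPM in Tak-1. The minus-strand model at 750288 to 752160 had 28.6, 29.8 and 35.0 CPM in Mpbes1 against 1.48, 1.64 and 1.33 CPM in Tak-1. The plus-strand model rose by 5.54 ± 0.27 on the log2 scale and the minus-strand model by 4.38 ± 0.15 (SE; adjusted p = 8.4e-08 and 8.2e-09, edgeR). The plus-strand model was thus close to the detection limit in Tak-1 and well above it in each Mpbes1 library.

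On scaffold_214, 887 bases at the starts were shared and both models rose by different amounts. The minus-strand model at 93302 to 97208 had 34.5, 29.2 and 34.2 CPM in Mpbes1 against 1.04, 2.34 and 1.69 CPM in Tak-1, and rose by 4.27 ± 0.20 (SE; adjusted p = 6.4e-08, edgeR). The plus-strand model at 96322 to 103351 had 12.9, 11.6 and 12.5 CPM in Mpbes1 against 3.12, 7.02 and 4.89 CPM in Tak-1, and rose by 1.30 ± 0.24 (SE; adjusted p = 0.0016, edgeR). Per kb, the minus-strand model was the stronger in each Mpbes1 library and the plus-strand model in each Tak-1 library. The log2 ratio of plus over minus level was -1.70 ± 0.07 in Mpbes1 and 1.11 ± 0.05 in Tak-1 (SD, n = 3 each).

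The pair on scaffold_88 shared 40 bases at its tails and was lower in the mutant. The plus-strand model at 102609 to 106948 had 0 counts in each Mpbes1 library, against 4.68, 4.37 and 2.75 CPM in Tak-1. Against the level that a count of 0 over the 3 Mpbes1 libraries allows, it was at least 55.9-fold lower. Its minus-strand partner at 106909 to 110812 had 0.338, 0.314 and 0.554 CPM in Mpbes1 against 1.34, 2.26 and 1.24 CPM in Tak-1, and fell by 1.93 ± 0.40 (SE; adjusted p = 0.0032, edgeR). Both fell without overlap between the genotypes.

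On scaffold_39, with 297 shared bases at the tails, the minus-strand model at 1149823 to 1155014 had 7.78, 6.52 and 8.42 CPM in Mpbes1 against 1.78, 1.48 and 1.33 CPM in Tak-1, and rose by 2.30 ± 0.21 (SE; adjusted p = 1e-05, edgeR). The plus-strand partner at 1138084 to 1150171 had 3.81, 2.90 and 2.99 CPM in Mpbes1 against 2.08, 1.40 and 1.60 CPM in Tak-1 (0.92 ± 0.25, SE; adjusted p = 0.014, edgeR). Its call was lost without Mpbes1 replicate 1 (adjusted p = 0.060, edgeR) or Tak-1 replicate 2 (adjusted p = 0.051, edgeR).

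A joint fall at the starts was seen on scaffold_1060, with 1129 shared bases. Its plus-strand model at 686 to 5984 had 16.8, 20.2 and 16.6 CPM in Mpbes1 against 23.5, 29.5 and 30.4 CPM in Tak-1, and fell by 0.64 ± 0.12 (SE; adjusted p = 0.0019, edgeR). The minus-strand model at 1 to 1814, with 75.5% of its exon bases shared, had 1.18, 1.26 and 1.33 CPM in Mpbes1 against 2.23, 1.87 and 2.40 CPM in Tak-1 (-0.77 ± 0.26, SE; adjusted p = 0.034, edgeR). This call was lost with DESeq2 (adjusted p = 0.15), without a filter on low counts, and without any 1 library other than Tak-1 replicate 2 (adjusted p = 0.068 to 0.097, edgeR).

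The weaker partner had the larger change in 12 of all 18 same-direction pairs, which the choice by calls favours here as well. Among the other same-direction pairs, unequal sizes of change were common. Outside the naming rule, the tail-to-tail pair with 1035 shared bases on scaffold_16 is an example. Its minus-strand model at 1700951 to 1707345 had 1.02, 0.55 and 1.38 CPM in Mpbes1 against 5.19, 5.54 and 6.39 CPM in Tak-1. Its plus-strand partner at 1697544 to 1701986 had 38.7, 38.2 and 40.2 CPM in Mpbes1 against 47.6, 46.1 and 51.8 CPM in Tak-1. A further example is the head-to-head pair with 239 shared bases on scaffold_49, whose plus-strand model at 802258 to 803534 had 2.71, 1.41 and 3.99 CPM in Mpbes1 against 0.0742, 0 and 0.0888 CPM in Tak-1. Its minus-strand partner at 799019 to 802496 had 68.9, 70.6 and 73.7 CPM in Mpbes1 against 62.9, 56.0 and 65.6 CPM in Tak-1.

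The ratio between partners gives another view of the same libraries. In 81 of the 175 pairs, 46.3%, the 3 Mpbes1 ratios did not overlap the 3 Tak-1 ratios, against 52.2% of opposite-strand neighbours. The share was 61 of 116 tail-to-tail pairs, 52.6%, against 58.6% of their neighbours, and 20 of 58 head-to-head pairs, 34.5%, against 46.1% of theirs. Neighbours up to 1000 bases apart were closer to the overlapping pairs. Their share was 46.1% on opposite strands in all, 54.3% tail to tail and 32.5% head to head. By length of the overlap it was 55.6%, 48.0%, 48.2% and 35.0% from the shortest to the longest class. Which partner was the stronger changed between the genotypes in 3 pairs, 1.71%. This compares with 4.56% of the neighbours at any distance and 3.04% of those up to 1000 bases apart.

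Of those 3, the scaffold_214 and scaffold_88 pairs are given above. The third, outside the naming rule, was head to head on scaffold_61 with 176 shared bases. Its minus-strand model at 1146823 to 1151111 had 5.55, 4.51 and 6.81 CPM per kb in Mpbes1 against 10.8, 17.6 and 11.6 in Tak-1, and fell by 1.23 on the log2 scale (adjusted p = 0.0033, edgeR). Its plus-strand model at 1150936 to 1155301 had 9.73, 10.3 and 10.1 CPM per kb in Mpbes1 against 9.30, 12.5 and 10.05 in Tak-1 and was not called.

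The 3 longest overlaps with both partners tested showed no call in either partner with the filter, scaling and 6 libraries used throughout. On scaffold_182, 2469 bases were shared at the tails, 70.7% of the exon bases of the plus-strand model. That model, at 88706 to 93206, had 28, 28.7 and 27.4 CPM in Mpbes1 against 29.6, 25.6 and 25.6 CPM in Tak-1. Its minus-strand partner at 90727 to 97598 had 38.9, 36.1 and 40.7 CPM in Mpbes1 against 43.3, 46.7 and 43.3 CPM in Tak-1, lower in each mutant library but with an adjusted p of 0.058 (edgeR). With only models of at least 5 CPM in 3 libraries tested, the adjusted p was just under the threshold (0.0499, edgeR). The log2 ratio of the partners differed by 0.26 between Mpbes1 and Tak-1 (two-sided exact permutation p = 0.20, n = 3 each).

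On scaffold_173, with 1830 shared bases at the tails, the plus-strand model at 272001 to 276056 had 13.0, 11.8 and 12 CPM in Mpbes1 against 10.7, 9.67 and 10.7 CPM in Tak-1. The minus-strand model at 274188 to 277556 had 8.21, 7.54 and 6.26 CPM in Mpbes1 against 6.31, 4.68 and 4.09 CPM in Tak-1 (0.53 ± 0.20, SE; adjusted p = 0.058, edgeR). It was called in 5 alternatives: without Mpbes1 replicate 3 (adjusted p = 0.042), without Tak-1 replicate 1 (0.019), with library sizes alone (0.044), without a filter on low counts (0.0497) and with a replicate block (0.024, all edgeR). The groups overlapped for the minus-strand model, and the log2 ratio differed by -0.29 (two-sided exact permutation p = 0.20, n = 3 each). On scaffold_1, 1735 bases at the starts were shared by a plus-strand model at 1939774 to 1953390 and a minus-strand model at 1935903 to 1941508. Their log2 ratio of plus over minus level was 1.35 ± 0.05 in Mpbes1 and 1.72 ± 0.06 in Tak-1 (SD, n = 3 each), with no overlap. The two-sided exact permutation p was 0.10, the smallest that 3 against 3 libraries allow.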

How the data were processed

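The authors deposited raw counts, whole-number read counts per gene model with no normalization, for 19287 models with the exon coordinates, strand and length of each, per the file headers. Tools named in the submitters' processing notes are featureCounts 1.5.1, STAR 2.5.2b and edgeR. How strand was set in counting, how reads that touch several models were handled, and which genome build was used is not given in the sources used here. Coordinates are those of the table, counted from 1. The reference gene list used here, of the assembly MpTak2_v7.1, held 0 of the identifiers.

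Samples were grouped by the genotype in the labels, 3 Mpbes1 and 3 Tak-1 plants. Exons of each model were merged, and pairs were found on the whole table. Models that passed filterByExpr were tested over all 12313 such models in R 4.3.3 by the quasi-likelihood test of edgeR 4.0.16 (TMM scaling, a single term for genotype), with Benjamini-Hochberg adjustment and a threshold of 0.05. Called models rose or fell at that threshold. SE of log2 fold changes come from that fit. The fit was tested on simulated counts. Levels are CPM divided by exon length in kb, and a pseudocount of 0.1 CPM per kb was added for ratios. Ratios in named pairs were compared by two-sided exact permutation over the 6 libraries (SciPy 1.17.1). Intervals on shares are exact (Clopper-Pearson, 95%) over pairs that share libraries, and intervals and limits of detection (3 counts) cover counting error only. Neighbours are models next to each other in start order without overlapping spans. Alternatives were DESeq2 1.42.0, limma-voom (limma 3.58.1), other scalings and filters, a replicate block, leaving out each library, and longer minimum overlaps.

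Named pairs were the 3 with the longest overlap and both partners tested, the 5 called in opposite directions with the largest difference of log2 fold changes, the 5 called in the same direction with the largest smaller change, the 3 fully covered models with the highest level, and the 3 with the widest ratio among pairs with both tested. The members and lists were chosen with earlier results of these data known. Identifiers are printed for the first 2 opposite pairs only. The planned naming of genes and any use of sequence were not carried out.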

Additional observations from a re-analysis of the deposited data

How the results depend on the processing

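The depth of the libraries limits mainly the weaker partners. Without a filter on low counts, pairs with both partners tested numbered 391 instead of 175, and the same-sign share was 52.2% instead of 53.7%. Pairs called in the same direction numbered 11 with DESeq2 against 18, and 10 to 15 when 1 library was left out, with 10 without Mpbes1 replicate 1 and 11 without Mpbes1 replicate 2. Opposite pairs numbered 9 with DESeq2 against 10, and 5 to 10 when 1 library was left out, with 5 without Mpbes1 replicate 2. With calls also at least 2-fold, there were 3 same and 0 opposite pairs of 175, against 65 and 19 of 3792 opposite-strand neighbours. The cause was not tested, beyond the smaller number of libraries or the stricter call itself. The same-sign share was 43.3 to 47.9% tail to tail and 58.6 to 72.9% head to head when 1 library was left out. It was 49.1% tail to tail and 56.9% head to head without a filter on low counts, and 50.9% tail to tail with library sizes alone.

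The median absolute log2 ratio of levels over the 6 libraries, 4.15 otherwise, was 2.55 with a pseudocount of 1, and 4.3 per kb of unshared bases. The difference of log2 ratios between Mpbes1 and Tak-1 turned to -0.72 on scaffold_16 with a pseudocount of 1 (0.55 otherwise), and on scaffold_1060 to -0.13 with a pseudocount of 1 (0.09 otherwise), with -0.045 to 0.23 when 1 library was left out. The alternatives for the ratios of named pairs, for the pseudocount by class and in neighbours, for the number of pairs tested and for the shares by layout were chosen after seeing the data. Signs also turned in the fits without 1 library for models that were never called: log2 fold changes were -0.000101 to 0.24 on scaffold_52 at 503988, -0.097 to 0.034 on scaffold_51 at 1147156 and -0.10 to 0.40 on scaffold_37 at 380979.

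Replicate numbers are not said to mark a shared origin, and same-numbered libraries correlated by 0.17, -0.03 and 0.14 after removing the genotype means, so they were not treated as pairs. With a replicate block, 120 members rose and 115 fell, and 20 same and 11 opposite pairs were called.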
